A study of Homo sapiens with 4 samples.

Results

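ATAC-seq maps open chromatin with the Tn5 transposase, which inserts sequencing adaptors where DNA is accessible. The sites described here are regions of open chromatin in SKBR3 cells that were present in every library and ranked lower among the peaks after treatment with the cytokine TWEAK. Peaks of the 4 deposited lists that overlapped by at least 1 bp on chromosomes 1 to 22 and X were merged into 307691 sites, of which 131751 (42.8%) had a peak in all 4 lists and are called shared. Each site took the best-ranked peak of each list, and its rank was written as a percentile of the whole list, where 100 is the peak with the highest deposited value. Members were chosen by these deposited values alone: a site was called falling when the lower of its untreated percentiles exceeded the higher of its TWEAK percentiles by at least 15 points. There were 3812 falling sites, 2.89% of the shared sites. The same measure with the treatments exchanged gave 2936 rising sites, 2.23% of the shared sites. The balance of the 2 counts turned under other scales, in a comparison made after seeing the data: with ranks taken among shared sites only, 2859 sites fell and 5005 rose, and by an enrichment changed at least 1.5 times after scaling each list to its median, 4079 fell and 4916 rose. Which direction was more frequent therefore depends on the scale.

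The SKBR3 line was established from a human breast cancer and overexpresses HER2 from extra copies of ERBB2. The labels give 1 growth protocol for all 4 libraries, with 8 h of starvation, and the treatment label sets the groups apart. The 2 control libraries came from untreated cells and the 2 TWEAK libraries from cells kept in TWEAK (10 ng/ml) for 48 h, with a fresh dose at 24 h. Neither group carried a genetic change beyond those of the line. Peak lists hold no expression, so the label could be set only against open chromatin: ERBB2 had 117 shared sites within 100 kb of its start sites and the luminal factor gene FOXA1 had 19. Results from 1 cell line do not speak for other HER2-positive cells, and the labels assign no library to a culture or a day.

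TWEAK binds the receptor Fn14, a member of the TNF receptor superfamily, and signals to the NF-kB and AP-1 families of transcription factors. Open chromatin away from promoters often marks enhancers, where combinations of transcription factors bind. In luminal breast cells, forkhead factors such as FOXA1 act as pioneer factors, which can bind closed chromatin and open it for others, together with GATA3, TFAP2 and GRHL factors. CTCF, in contrast, binds a long motif at boundaries and loop anchors that are much alike between cell types.

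The letters of some sites with large drops are shown first, as examples of the motifs that the later comparisons count. The 4 windows below are from the 10 single, aligned sites with the largest drops. They were picked for holding at least 1 of the 26 motifs searched. The sites nearest to RPH3A, C1orf87 and FOSL2, also among the 10, held none of these motifs. Each is the hg38 plus strand, 5′ to 3′, reaching 100 bp to either side of the midpoint of the site's best peak, and named by its nearest protein-coding gene. Capitals mark motif matches on either strand.
DIAPH3 (chr13:58680281-58680481): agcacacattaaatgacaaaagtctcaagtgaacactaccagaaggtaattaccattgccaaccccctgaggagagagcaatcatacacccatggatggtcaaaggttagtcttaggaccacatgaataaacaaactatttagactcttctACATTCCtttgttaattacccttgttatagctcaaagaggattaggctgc
RCN1 (chr11:32161549-32161749): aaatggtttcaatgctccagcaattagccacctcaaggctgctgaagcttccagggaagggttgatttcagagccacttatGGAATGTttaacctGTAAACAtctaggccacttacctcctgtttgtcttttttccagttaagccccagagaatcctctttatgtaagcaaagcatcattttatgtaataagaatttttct
ASRGL1 (chr11:62323840-62324040): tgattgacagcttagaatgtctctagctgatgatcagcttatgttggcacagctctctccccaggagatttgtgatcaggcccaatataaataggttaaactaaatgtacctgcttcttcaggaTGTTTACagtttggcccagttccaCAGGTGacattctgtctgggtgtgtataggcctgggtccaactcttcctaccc
EPB41 (chr1:28956263-28956463): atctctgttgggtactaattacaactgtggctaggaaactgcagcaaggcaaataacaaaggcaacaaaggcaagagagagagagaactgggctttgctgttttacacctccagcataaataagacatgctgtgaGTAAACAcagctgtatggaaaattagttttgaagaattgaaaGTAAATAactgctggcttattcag
The forkhead motif was searched as TGTTTAC or TATTTAC and reads GTAAACA or GTAAATA on the opposite strand. RCN1 and ASRGL1 each held 1 forkhead match and EPB41 held 2. Because the windows were picked for their motifs, they do not show the forkhead share of all falling sites, which was 19.7%. The other capitals are a TEAD motif (ACATTCC) in DIAPH3 and RCN1 and an E-box (CACCTG) in ASRGL1. A match is a description of the letters and is not evidence that a factor was bound.

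A second set is shown because it lies around FOXA1, which encodes a forkhead factor of luminal breast cells. These 3 windows are the falling sites within 100 kb of a FOXA1 start site, chosen after their values were seen, and each held the forkhead motif. Capitals again mark all matches, which include a RUNX motif (TGTGGTT) in the first window and a GATA motif (AGATAA or TGATAA) in the last.
FOXA1 locus, TTC6 intron (chr14:37616349-37616549): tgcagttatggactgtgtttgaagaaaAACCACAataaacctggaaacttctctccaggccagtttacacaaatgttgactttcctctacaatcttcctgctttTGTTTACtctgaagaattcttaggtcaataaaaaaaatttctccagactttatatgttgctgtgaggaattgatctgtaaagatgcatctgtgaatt
FOXA1 locus, MIPOL1 promoter (chr14:37564007-37564207): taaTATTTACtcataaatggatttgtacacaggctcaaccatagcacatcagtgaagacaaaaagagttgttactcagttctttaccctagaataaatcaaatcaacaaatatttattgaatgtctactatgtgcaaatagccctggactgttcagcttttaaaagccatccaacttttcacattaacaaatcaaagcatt
FOXA1 locus, second TTC6 intron site (chr14:37641196-37641396): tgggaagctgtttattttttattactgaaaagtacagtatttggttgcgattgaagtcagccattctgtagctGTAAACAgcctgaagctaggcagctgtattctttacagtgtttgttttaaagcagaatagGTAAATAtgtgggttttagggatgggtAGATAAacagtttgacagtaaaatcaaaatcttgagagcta

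The drop in rank was a shift from the middle of the lists to their lower part. In untreated replicate 1 the percentiles of the falling sites had a median of 55.3, with a lowest of 19.8 and a highest of 90.7. Untreated replicate 2 had a median of 57.9, from 22.8 to 91.0. The TWEAK medians were 29.2 (2.25 to 74.5) in replicate 1 and 27.3 (2.52 to 73.3) in replicate 2. Over all shared sites the 4 medians were 66.6, 69.3, 68.2 and 64.1 in the same order. The falling sites therefore stood somewhat below the typical shared site before treatment and far below it after. These percentiles chose the sites, so they are a description and were not tested.

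**Figure D1:**
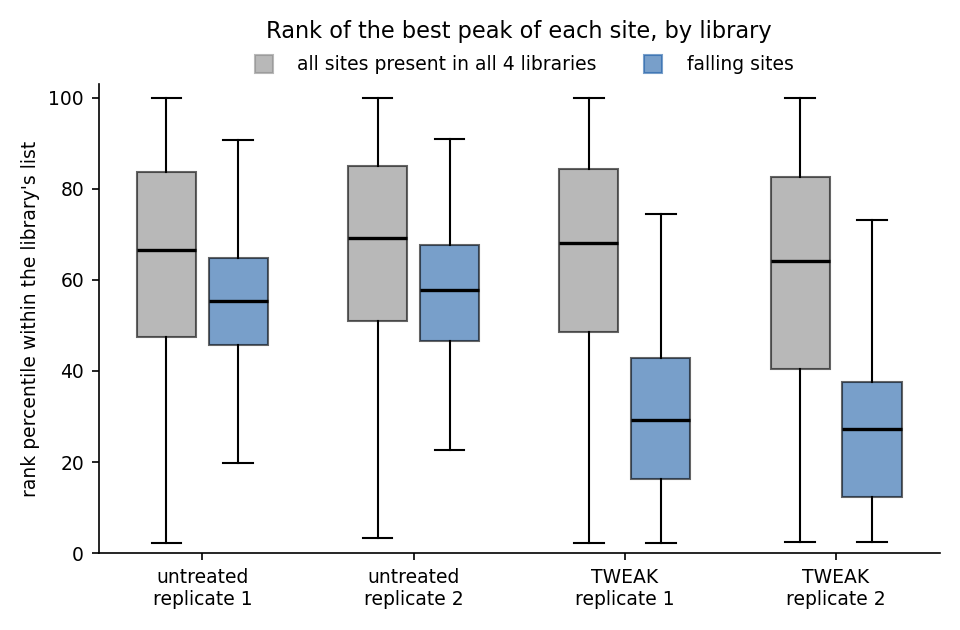
Rank percentile within each library's list for all shared sites (grey) and falling sites (blue). Boxes span the quartiles, black lines are medians and whiskers reach the lowest and highest site. The falling sites sit at medians of 55.3 and 57.9 in the untreated libraries and 29.2 and 27.3 in the TWEAK libraries, while the medians of all shared sites lie between 64.1 and 69.3. The lower quartile of the grey boxes is 40.5 in TWEAK replicate 2 and 47.4 to 51.0 in the other libraries.

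Most falling sites started over percentile 50 in both untreated libraries, and under 50% of them crossed the middle in all libraries. Both untreated percentiles lay over 50 in 2335 sites (61.3%), and in 1784 sites (46.8%) both TWEAK percentiles also lay under 50. Only 264 sites had both untreated percentiles over 75. Both TWEAK percentiles were under 10 in 207 sites (5.43%), and in 61 sites both TWEAK peaks carried the lowest value of their list. The median gap was 0.192 of a list, or about 19.2 points, and the largest was 55.3 points. A gap of at least 20 points was found in 1654 sites, of at least 25 in 687, of at least 30 in 249 and of at least 40 in 27. Among rising sites the corresponding numbers were 1752, 1078, 681 and 245, so the rising sites had fewer members at the threshold and more at large gaps.

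Sites next to the threshold show how small its margin was. The 3 members just inside it, nearest to BLMH, KIR2DL4 and ZNF704, had gaps of 15.02 points. The 3 sites just outside it, nearest to ANXA13, HSBP1 and ARHGAP18, had gaps of 14.98 points.

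The same rule was applied to the other ways of setting 2 libraries against 2. Untreated and TWEAK replicate 1 stood above both replicates 2 in 396 sites (0.301% of the shared sites), and the reverse held for 218 sites (0.165%). Untreated replicate 1 and TWEAK replicate 2 stood above the other libraries in 108 sites (0.082%), and the reverse held for 811 sites (0.616%). The number of falling sites was thus 4.70 times the highest number from a mixed pairing. With a library left out the rule is looser, and 10703 sites passed without untreated replicate 1, 6377 without untreated replicate 2, 16124 without TWEAK replicate 1 and 8587 without TWEAK replicate 2. With 2 libraries a group, an exact two-sided permutation test cannot give a p below 0.333, so the count was not tested.

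A rank is relative, and a site can drop because others rise. The deposited values were therefore also turned into pileups, the number of overlapping fragments at a peak, and divided by the background of each list (3.59, 2.24, 2.63 and 1.85 fragments in untreated replicates 1 and 2 and TWEAK replicates 1 and 2). The pileups of the falling sites had medians of 31 and 22 in the untreated libraries and 14 and 12 in the TWEAK libraries. Enrichment over background had medians of 8.64 and 9.84 untreated and 5.32 and 6.50 with TWEAK. On the log2 scale, TWEAK over untreated enrichment had a median of -0.62, or 0.650-fold, over the falling sites and of 0.15 over the 120755 shared sites with a usable pileup in every list. Both untreated enrichments exceeded both TWEAK enrichments in 3606 falling sites (94.6%). These enrichments come from the values that chose the sites and are given without a test. Ranking peaks among the shared sites only gave 2859 falling sites, of which 1880 were among the 3812, so membership of many sites depends on how ranks are taken. Because TWEAK pileups at these sites were often near 10 fragments, counting error on a single site is large.

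At the sites with the largest drops, both TWEAK libraries lay far below both untreated libraries. The largest was in an intron of RPH3A, which encodes a protein of secretory vesicles, at chr12:112833085-112833664, 17127 bp from the nearest start site. It stood at percentiles of 80.4 and 73.2 in the untreated libraries and 11.2 and 17.9 in the TWEAK libraries, with pileups of 82 and 39 against 10 and 10. None of the searched motifs was found in its window. The site nearest to DIAPH3, a formin gene, lay 1015492 bp from a start site and went from 69.9 and 74.8 to 21.4 and 17.9. The intergenic site near RCN1, which encodes a calcium-binding protein of the endoplasmic reticulum, went from 47.4 and 53.0 to 2.25 and 2.52, the lowest percentile of either TWEAK list. The intergenic site near ASRGL1 went from 61.1 and 68.5 to 6.62 and 17.9. It lies within 100 kb of SCGB2A2, the gene of the mammary secretory protein mammaglobin A.

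The remaining 6 of these 10 sites had untreated percentiles between 53.0 and 68.5 and TWEAK percentiles between 6.62 and 21.4. Intergenic ones were nearest to CHRNA4, SOX11 (314722 bp from its start site) and C1orf87. Others lay in an intron of EPB41, in the promoter of TRAPPC9 and in an intron of BABAM2 whose nearest start site belonged to FOSL2. EPB41 encodes a protein of the membrane skeleton and FOSL2 an AP-1 subunit. At the site nearest to FOSL2, 143090 bp from its start, pileups were 38 and 30 in the untreated libraries and 12 and 9 with TWEAK. The groups did not overlap at any of the 10 sites, as the rule requires.

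**Figure D2:**
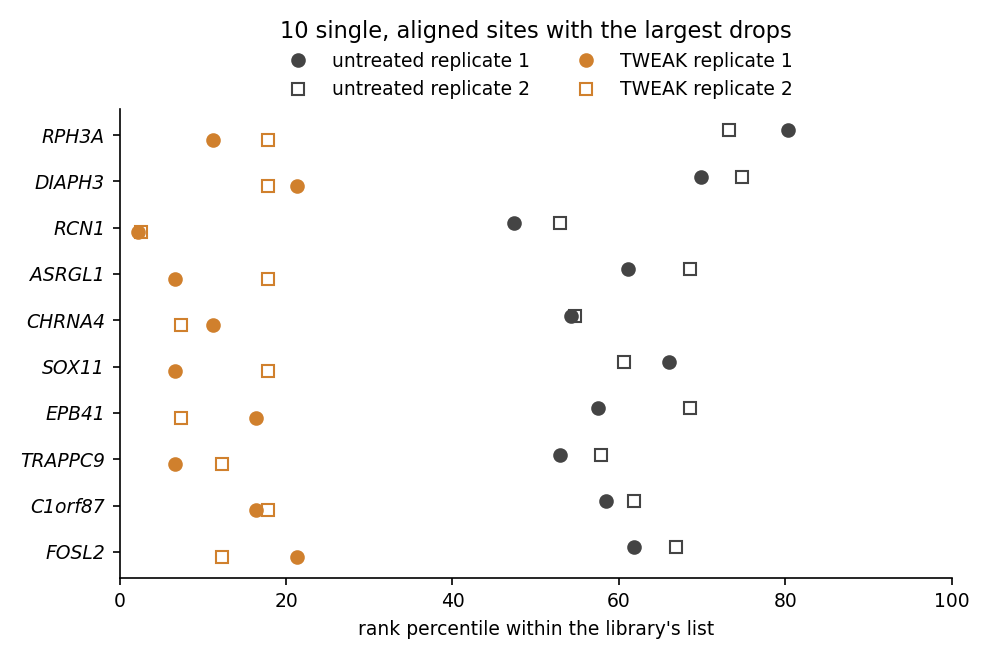
Rank percentiles of the 10 single, aligned falling sites with the largest drops, named by nearest gene. Dark symbols are the untreated libraries and orange symbols the TWEAK libraries, with circles for replicate 1 and squares for replicate 2. All TWEAK symbols lie at or below 21.4 and all untreated symbols at or above 47.4.

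Falling sites lay mostly away from promoters. Within 1 kb of a start site of a protein-coding gene lay 352 falling sites (9.23%, 95% Wilson interval 8.36 to 10.2), compared with 20.01% of all shared sites and 7.87% of rising sites. Introns held 1645 (43.2%), against 35.7% of shared sites, and exons 168 (4.41%), against 3.33%. Intergenic sequence held 1647 (43.2%), close to the 40.9% of shared sites. The median distance to a start site was 19860 bp, against 12322 bp over all shared sites. Promoters tend to rank high, so the shared sites were also weighted to the distribution of mean ranks of the falling sites, which gave a promoter share of 13.4%. The interval of the falling sites lay below this weighted share. Wilson intervals here cover counting error only, and neighbouring sites are not independent.

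The promoters among the falling sites had a lower GC content than other open promoters. The median GC content of the 201 bp window was 53.2% in the 352 falling promoter sites, against 61.7% in all 26365 shared promoter sites. They held a median of 4 CpG dinucleotides per window, against 10. They also ranked far lower, with a median mean percentile of 39.6 against 80.5. With shared promoter sites weighted to the ranks of the falling ones, mean GC content was 54.1% in falling and 56.5% in shared promoter sites, against 61.2% unweighted. Mean CpG per window was 6.02 in falling promoter sites, against 12.4 in shared ones and 7.64 after this weighting. Of the falling promoter sites 56 (15.9%, 12.5 to 20.1) held the forkhead motif, against 5.07% of all shared promoter sites and 6.30% after this weighting. The 5 single, aligned promoter sites with the largest drops belonged to TRAPPC9, FLNA, AHR, PAPSS1 and HIP1R. FLNA encodes filamin A, a crosslinker of actin, and its promoter site went from 54.2 and 51.0 to 11.2 and 7.37. AHR encodes the aryl hydrocarbon receptor, and the site at its promoter went from 67.2 and 68.5 to 29.2 and 31.2. PAPSS1 encodes an enzyme that makes the sulfate donor of the cell, and its site, which held the forkhead motif, went from 58.4 and 66.9 to 21.4 and 23.03. Over all falling sites the median GC content was 46.3%, against 50.2% over all shared sites and 47.3% over rising sites. The mean was 47.3%, against 51.5% over all shared sites and 49.1% with these weighted by rank, so the gap was smaller at equal rank.

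The forkhead motif stood out among the 26 motifs. It was found in 751 falling sites (19.7%, 18.5 to 20.99), compared with 11.3% of all shared sites and 9.74% of rising sites. Weighting the shared sites to the ranks of the falling sites left their share at 11.3%. Weighting them to the GC content of the falling sites raised it to 14.6%, and weighting to both gave 12.95%. The lower bound of the falling sites lay above each of these shares. Among falling sites with a GC content under 45%, 31.9% (29.7 to 34.2) held the motif against 21.99% of shared sites in that range, and from 45% upwards the shares were 9.86% (8.66 to 11.2) and 6.91%.

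The forkhead share of falling sites lay above that of shared sites in each subset examined. It was 20.1% (18.8 to 21.5) away from promoters, against 12.8% of distal shared sites. Among sites whose best peak came from untreated replicate 1 it was 17.9% (16.03 to 19.9), against 11.9% of shared sites with their best peak there, and for untreated replicate 2 the shares were 20.9% (19.3 to 22.6) and 12.7%. In the 1176 falling sites with a mean percentile of 50 or more it reached 27.8% (25.3 to 30.4), against 11.5% of shared sites of that rank. Between mean percentiles of 30 and 50 it was 18.6% (16.9 to 20.5) against 11.9%. Under 30 it was 10.6% (8.68 to 12.9) against 8.31%, the smallest difference of the 3 ranges. Outside chromosome 8 the shares were 20.4% (19.1 to 21.8) and 11.3%. By size of the drop, the share was 18.4% at gaps of 15 to 20 points, 21.6% at 20 to 25, 21.5% at 25 to 30 and 20.1% at 30 or more, with overlapping intervals.

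Both spellings of the motif took part. TGTTTAC was found in 10.6% of falling and 6.80% of shared sites, and TATTTAC in 10.6% and 5.02%. At least 2 forkhead matches were found in 106 falling sites (2.78%, 2.30 to 3.35), against 1.12% of shared and 0.647% of rising sites. A forkhead match together with a GATA motif was found in 3.17% of falling and 1.64% of shared sites, and together with a TFAP2 motif in 2.12% and 1.06%.

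Forkhead matches were concentrated at the centre of the falling peaks, and matches in shared and rising sites also peaked there. In the 20 bp bin from 10 to 30 bp right of the centre, 3.28% of falling sites had a match, and in the bin across the centre 3.20%. In the bin from 130 to 150 bp the value was 0.682%, and from 210 to 230 bp it was 1.31%. Across the centre the share was 1.74% over all shared sites and 1.36% over rising sites. From 130 to 150 bp these shares were 0.609% and 0.443%. The AP-1 matches of the falling sites showed little such peak, with 0.498% across the centre, compared with 1.79% in shared and 4.87% in rising sites.

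**Figure D3:**
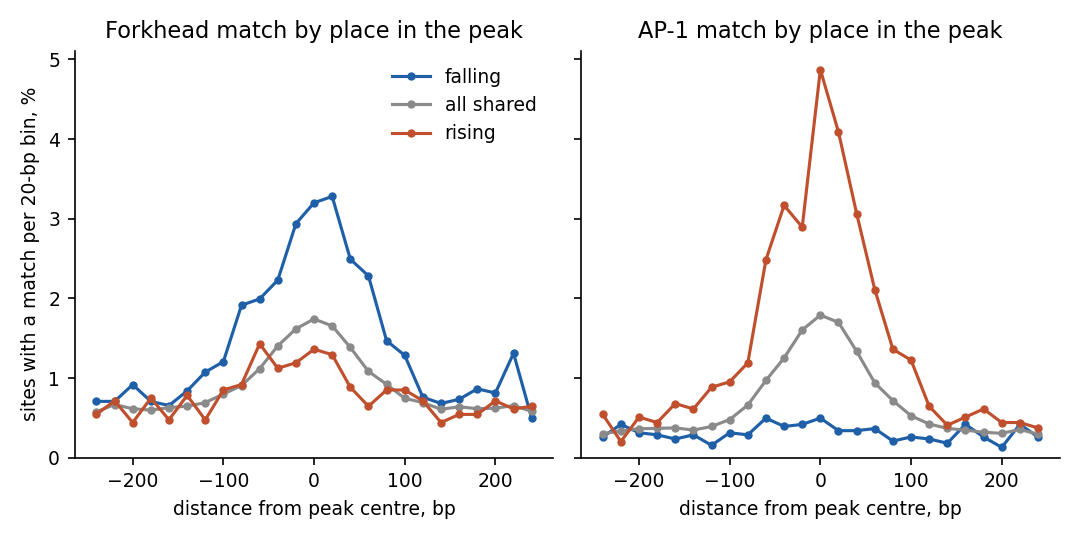
Share of sites with a forkhead match (left) and an AP-1 match (right) in bins of 20 bp by distance from the midpoint of the best peak, for falling (blue), all shared (grey) and rising (orange) sites. Forkhead matches peak at 3.28% in falling sites, and AP-1 matches peak at 4.87% in rising sites and are nearly flat in falling sites.

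The motifs of the factors that TWEAK signals to were less frequent in falling than in shared sites. AP-1 was searched as TGACTCA or TGAGTCA and was found in 133 falling sites (3.49%, 2.95 to 4.12), against 10.6% of shared and 23.3% of rising sites. The NF-kB consensus was found in 96 falling sites (2.52%, 2.07 to 3.07), against 5.96% and 30.2%. With shared sites weighted by rank these shares were 9.81% for AP-1 and 5.40% for NF-kB. Each falling window was centred on an untreated peak, and shared sites with their best peak in an untreated library held less AP-1. For a best peak in untreated replicate 1 the AP-1 share was 3.18% (2.41 to 4.19) of falling and 6.31% of shared sites, and for untreated replicate 2 it was 3.69% (2.996 to 4.54) and 7.65%. The NF-kB share was 2.45% (1.78 to 3.36) against 4.53% in the former and 2.56% (1.99 to 3.29) against 4.18% in the latter. A forkhead and an AP-1 match stood together in 25 falling sites (0.656%), against 1.17% of shared sites. In all, 2868 falling sites (75.2%) held none of these 3 motifs, close to the 74.2% of all shared sites, so the forkhead motif marks a minority of the falling sites.

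The share of sites with a motif followed the change in rank across all shared sites, whether or not they passed the threshold. Where the mean TWEAK percentile lay over 30 points below the mean untreated percentile, 21.1% of 1280 sites held a forkhead motif. The share was 14.4% at decreases of 10 to 15 points and 9.94% at decreases of up to 5 points. Among sites that rose it stayed between 8.29% and 10.8%. AP-1 was at 3.12% at the largest decreases, 14.4% at increases of up to 5 points and 23.002% at increases over 30 points, and NF-kB at 2.11%, 6.47% and 35.6%. The bins share their libraries with the rule, so these shares are a description.

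**Figure D4:**
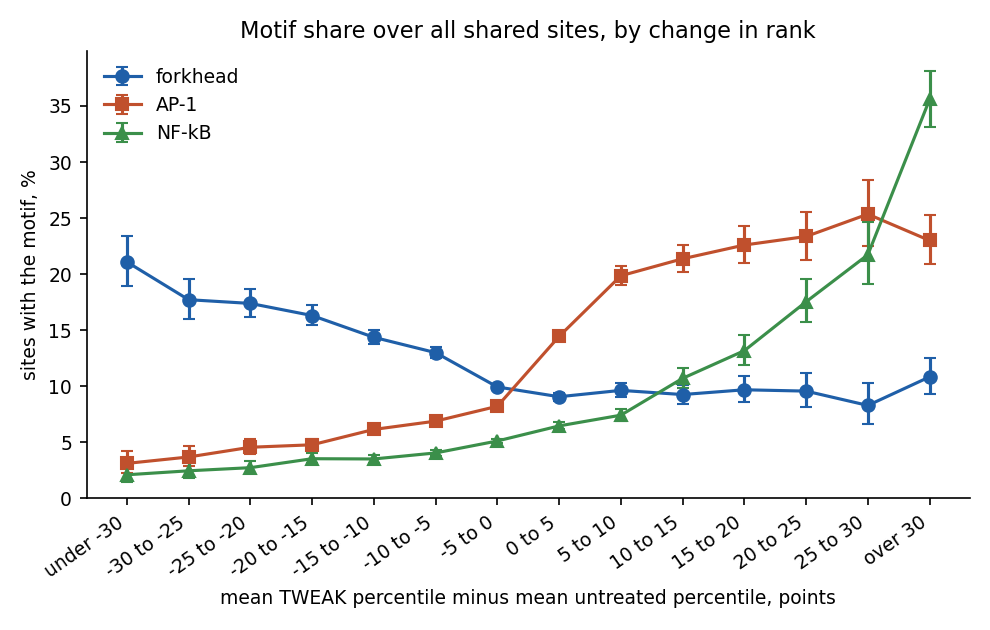
Share of sites with a forkhead (blue circles), AP-1 (orange squares) or NF-kB (green triangles) motif over all shared sites, binned by mean TWEAK minus mean untreated percentile. Bars are 95% Wilson intervals. The forkhead share is highest, at 21.1%, where rank fell most and lies between 8.29% and 10.8% where rank rose. NF-kB is highest, at 35.6%, where rank rose most, and AP-1 is highest, at 25.4%, at increases of 25 to 30 points.

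Several further motifs differed from the shared sites of equal rank. Besides forkhead, 4 motifs had an interval above the rank-weighted share. The TEAD motif was found in 269 falling sites (7.06%), against 5.52%, but in rising sites the share was no lower (7.39%, 6.50 to 8.39). The ELF/EHF motif (AGGAAGT) was found in 302 (7.92%), against 6.50%. TFAP2 (GCCNNNGGC) was found in 553 (14.5%), against 12.7%, but all shared sites unweighted had 15.03%. For the MYC E-box (CACGTG) the values were 3.91% against 3.34%, just past the lower bound of the falling sites and close to the 3.83% of all shared sites. The GATA motif was found in 12.4% of falling sites (11.4 to 13.5), against 11.01% of shared sites, 13.5% of those weighted by rank and 14.9% of those weighted by rank and GC content, which lies above the interval. CTCF core was found in 26 falling sites (0.682%, 0.466 to 0.998), against 4.66% of all shared sites and 2.69% after weighting, and in rising sites the share was also low (0.375%, 0.209 to 0.670). SP/KLF (GGGCGGG), common in promoters, was found in 2.78% against 9.30% and 4.42%, with 2.69% in rising sites. GRHL (AACCGGTT or AACTGGTT) was found in 34 sites (0.892%), against 1.66% and 1.45%. The intervals of NRF1, IRF and the ZEB/SNAI E-box also lay below the rank-weighted share. With weighting by rank and GC content together, the shares of the ZEB/SNAI E-box (20.3%), SP/KLF (3.16%) and NRF1 (0.103%) lay inside the intervals of the falling sites, and that of C/EBP (12.99%) lay above its interval. With GC content alone the TEAD share (6.45%) lay inside. The intervals of the remaining motifs in the plot of motif shares held the rank-weighted share. Of these, the C/EBP motif (TTGCNNAA) was found in 440 falling sites (11.5%) against 11.97%, and the STAT motif (TTCNNNGAA) in 234 (6.14%) against 5.91%. The ETS motif (CCGGAAG), common at promoters, was found in 38 falling sites (0.997%, 0.727 to 1.37) against 1.33%. Its share of all shared sites was 2.80% unweighted, 1.76% weighted by GC content and 1.11% weighted by both. For NFY (CCAATCA) the number was 119, for SOX (ACAATGG) it was 93 and for YY1 (AAGATGGC) it was 28.

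**Figure D5:**
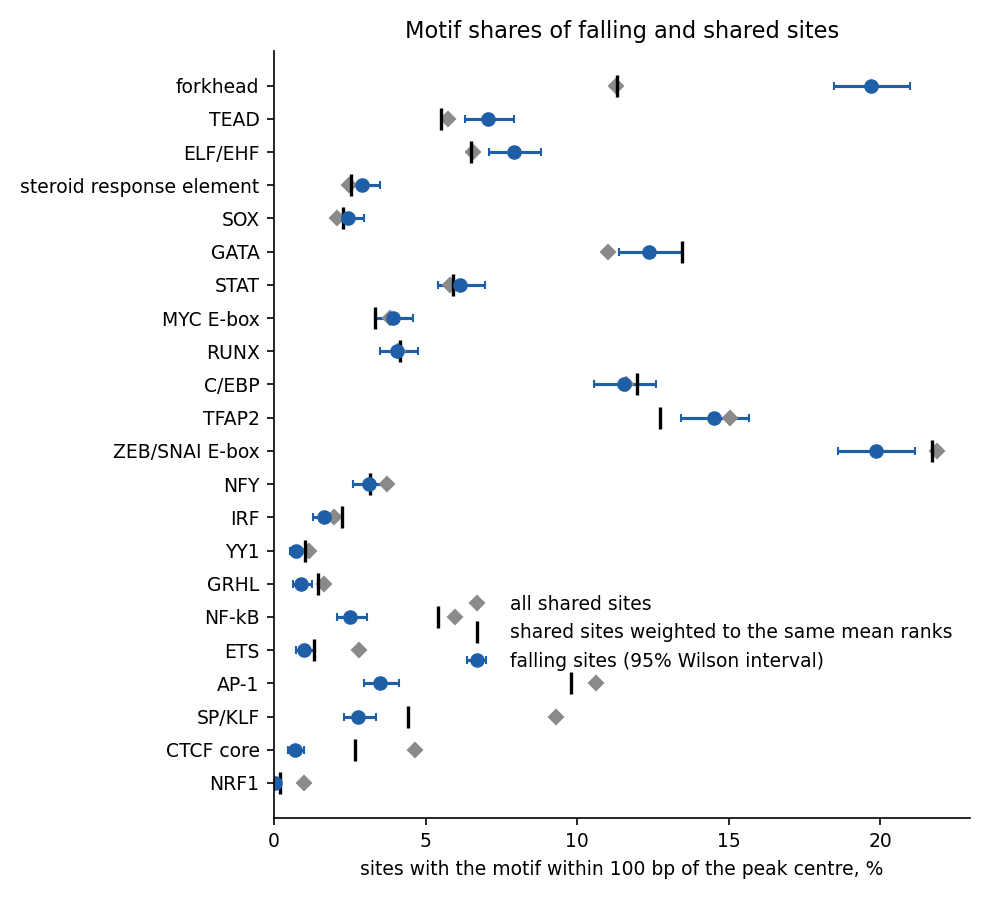
Share of falling sites holding each motif that occurs in at least 1000 shared sites (blue, with 95% Wilson intervals), beside all shared sites (grey diamonds) and shared sites weighted to the same mean ranks (black ticks). Forkhead stands at 19.7% against 11.3%, and AP-1, NF-kB and CTCF core lie to the left of both references.

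Peaks of falling sites were placed less evenly than those of all shared sites, but at equal rank the shares of aligned sites were close. The centres of the 4 peaks of a falling site spread over a median of 83 bp, against 34 bp over all shared sites. Sites with a single peak in each list and centres within 100 bp of each other, called single and aligned, made up 2053 of the falling sites (53.9%), against 74.5% of the shared sites and 55.2% after weighting by rank. Restricted to such sites, 2.09% of the shared sites fell and 1.92% rose. The forkhead share was higher among them, at 24.0% (22.2 to 25.9) against 12.0% of single, aligned shared sites, and the AP-1 share was 3.85% against 11.7%.

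By chromosome, falling sites were most frequent on chromosome 8, with 484 (3.96% of its shared sites, 3.62 to 4.32), and least on chromosome 19, with 95 (2.06%). Beyond 45 Mb of chromosome 8, a stretch that covers most of its long arm, 453 of 11054 shared sites fell (4.10%), and before it 31 of 1180 (2.63%). Without chromosome 8 the share was 2.78%. Shared sites beyond 45 Mb ranked lower, with a median mean percentile of 47.8 against 67.7 outside chromosome 8. Sites outside chromosome 8 weighted to the same ranks had a falling share of 4.50%, so no excess was seen at equal rank. Of the 3 windows of 1 Mb with the most falling sites, 2 lay there, at 115 to 116 Mb with 30 of 423 shared sites and at 79 to 80 Mb with 21 of 382. The remaining window, at 128 to 129 Mb of chromosome 7, had 21 of 286. The nearest genes with the most falling sites were TRPS1 (48 of 690), which encodes a GATA-type repressor, CSMD3 (42 of 758) and HNF4G (15 of 282), all on chromosome 8.

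Peak placement differed on this chromosome too. Beyond 45 Mb only 43.0% of shared sites and 24.5% of falling sites were single and aligned, against 77.3% and 57.6% outside chromosome 8. Among single, aligned sites, 2.34% (1.94 to 2.81) fell beyond 45 Mb and 2.08% (1.99 to 2.17) outside chromosome 8, so the excess was not detectable in them. The forkhead share of the falling sites beyond 45 Mb was 14.1% (11.2 to 17.6), against 10.98% of shared sites there.

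Of 236 genes in 14 lists, 235 were found in the annotation. Within 100 kb of their start sites lay 5470 shared sites, of which 138 (2.52%) fell, a share close to the 2.89% over all shared sites, and 100 of the genes had at least 1 falling site. The 21 genes of luminal and epithelial transcription factors had 35 of 752 (4.65%, 3.37 to 6.404) and 15 rising sites. TRPS1 gave 18 of the 35, and without it the list had 17 of 532 (3.20%, 2.004 to 5.06). Only 5.56% of the falling sites at TRPS1 were single and aligned.

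Counts varied over the luminal and epithelial transcription factor genes, with no test between genes. No site fell at GATA3 (of 14 shared sites), ESR1 (of 15), GRHL3 (of 40), XBP1 (of 20) or KLF5 (of 12), nor at OVOL2 and TFAP2B. TFAP2A and CREB3L1 each had 1 falling and 3 rising sites, and TFAP2C had 1 and 2. FOXA1 had 3 falling sites among 19 shared sites and no rising site, where 2.89% of all shared sites fell. All 3 were single and aligned. The site in a TTC6 intron, 20082 bp from FOXA1, went from percentiles of 47.4 and 60.6 to 16.4 and 17.9, with pileups of 25 and 24 against 11 and 10. The site at the MIPOL1 promoter went from 59.3 and 57.9 to 32.5 and 17.9, and the second TTC6 site from 63.3 and 61.8 to 46.8 and 34.6. ELF5 and EHF, neighbouring genes of epithelial ETS factors, shared a site 4172 bp from ELF5 that held a forkhead match. It went from 35.6 and 46.5 to 2.25 and 2.52, with peak centres spread over 226 bp. The other falling site at EHF, 34391 bp from its start, held a CTCF core match and no forkhead match. SCGB2A2, of the list of steroid and differentiation response genes, had 3 falling sites among 14, and all 3 held a forkhead match. In the same list AGR2 and AZGP1 each had 0 falling and 2 rising sites. Beside the ASRGL1 site above, the site nearest to SCGB2A1 went from 73.8 and 70.7 to 48.6 and 51.2. The site in an ASRGL1 intron went from 50.3 and 43.8 to 21.4 and 27.3. These loci were picked from the listed genes after their values were seen, so no excess is read from their small counts.

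The other lists lay near or below the share over all sites. Genes of the NF-kB pathway had 12 falling sites of 598 (2.01%, 1.15 to 3.47) and 26 rising sites (4.35%), against 2.23% rising over all shared sites. TNIP1 alone gave 11 of the 26 rising sites and 1 of the 12 falling ones. The falling site there with the largest drop, an intergenic site nearest to PSMA6 and in reach of NFKBIA, went from 76.6 and 79.6 to 44.9 and 17.9, but its 4 peak centres spread over 1133 bp, so these values may belong to different elements. AP-1 and small MAF genes had 9 of 617 (1.46%), with the largest drop 23128 bp from ATF3 at a site holding a forkhead match, from 78.9 and 81.0 to 54.6 and 52.9. TWEAK receptor and TNF receptor genes had 2 of 206 and ERBB family and ligand genes 5 of 353, of which 3 lay at ERBB2 among its 117. YAP and TEAD genes had 11 of 329 (3.34%, 1.88 to 5.89). The gene of the co-activator TAZ, WWTR1, gave 4 of these among 29 shared sites, and none of the 4 held a forkhead match. Its promoter site went from 67.2 and 72.6 to 48.6 and 51.2. Epithelial-mesenchymal transition genes had 12 of 349, steroid and differentiation response genes 14 of 436, survival genes 12 of 447 and interferon-stimulated genes 9 of 315. Cell cycle genes had 8 of 395, with the largest drop in an exon of CDKN1B, the gene of the inhibitor p27, from 51.7 and 51.0 to 25.5 and 17.9. Keratin genes had 4 of 272, NAD synthesis genes 5 of 271, and mammary stromal and immune marker genes, which mark cells other than this line, 3 of 255.

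Falling sites were spread over many genes but lay near each other more often than shared sites lay near them, and rising sites did the same. They were nearest to 2630 genes, of which 2004 had a single falling site and 48 had 5 or more. Outside chromosome 8 the genes with the most were SND1 (13 of 138) and PREX1 (10 of 117). Another falling site lay within 10 kb of 430 falling sites (11.3%, 10.3 to 12.3), against 7.22% of shared sites with a falling site in that reach. A rising site lay within 10 kb of 114 falling sites (2.99%, 2.495 to 3.58), against 4.46% of shared sites. Another rising site lay within 10 kb of 363 rising sites (12.4%, 11.2 to 13.6). These shares were not weighted by rank. They include chromosome 8, which held 12.7% of the falling and 9.29% of the shared sites.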

How the data were processed

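Peaks were merged as the report describes, for the 4 deposited lists of 195388 to 228734 peaks. Per the methods, the authors trimmed reads with Trimmomatic, mapped them to hg38 with Bowtie2, filtered with Bamtools and Picard, and called peaks per library with MACS2. Versions, the shift for the transposase and the step that gave 501 bp peaks are not given in the sources used here. The deposited value is unnamed and was read as the −log10 of the authors' p-value against 1 background per list, from which pileups were recovered for values under 300. The lists hold no read counts, so depth is known only through that background, and differential testing of reads was not possible.

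Groups and replicate numbers came from the sample titles. The members and all lists and motifs were chosen with earlier results of these data known. Sites named are the 10 single, aligned sites and the 5 such promoter sites with the largest drops, the largest drop near each gene list, the sites next to the threshold, and the 1 Mb windows and genes with the most falling sites. The FOXA1, EHF, SCGB2A2 and WWTR1 loci were added after values were seen. Genes and positions are from GENCODE 44, and motifs were searched on both strands in the 201 bp around the midpoint of a site's best peak. Sequences from chromosome 8, from untranslated regions and of 2 further named sites are not reported here. Motifs may overlap each other in a window. CREB/ATF, NFI, ERE and XBP1/CREB3 were each found in under 1000 shared sites, and no result is given for them. The longer consensus sequences of NF-kB, CTCF core, NRF1, IRF and the steroid response element are given by name. Rank weighting used 20 bands of mean rank and GC weighting 9 bands. The scripts used Python 3.11.15, pandas 2.3.3 and SciPy 1.17.1 and were tested on simulated data. Shares carry 95% Wilson intervals. No test was run, because every comparison rests on the libraries that chose the sites. Alternatives varied the threshold, ties, merging, ranking, peak placement, minimum value, motif window, promoter and gene distances, and the libraries.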

Additional observations from a re-analysis of the deposited data

How the results depend on the processing

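Of 86 values recomputed under alternatives, 50 stayed within the limits set for them (a count within 1.5 times, a share within the interval of its reported value, GC content within the spread between sites) and 36 moved beyond them. Of the 69 that are shares or GC content and can be set against all shared sites, 0 changed sides. A threshold of 0.1 gave 8751 falling sites, with a promoter share of 10.6% and 312 near listed genes (5.70% of the shared sites there, against 6.64% of all), and a threshold of 0.2 gave 1654, with a forkhead share of 21.3% and 54 near listed genes (0.987%, against 1.26%). Single, aligned sites numbered 2053, with promoter and forkhead shares of 7.79% and 24.0%. A value of at least 5 gave a forkhead share of 23.5%, against 11.5% of shared sites. Searching whole peaks gave 27.9% for forkhead, 7.56% for AP-1 and 7.32% for NF-kB, against 18.8%, 15.3% and 13.5% of shared sites. A promoter distance of 2.5 kb gave 16.7%, against 27.2% of shared sites. A gene distance of 50 kb gave 81 sites near listed genes (2.32%, against 2.89%).

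A rule over 3 libraries is looser than over 4, and each omission raised the count by over 1.5 times: to 10703 without untreated replicate 1, 6377 without untreated replicate 2, 16124 without TWEAK replicate 1 and 8587 without TWEAK replicate 2. Over these omissions, promoter shares ran from 10.8% to 11.7%, forkhead from 15.97% to 18.1%, AP-1 from 3.76% to 4.99% and NF-kB from 2.89% to 3.20%. The shares of all shared sites then ran from 19.3% to 19.7%, 11.1% to 11.2%, 10.1% to 10.95% and 5.70% to 6.16% in that order. Ranking among shared sites only gave 2859 sites, 1880 of them among the 3812 (49.3% of the latter, 65.8% of the former), and, examined after seeing the data, shares of 7.73% for promoters, 25.6% for forkhead and 1.78% for NF-kB. A replicate block, asking for the gap within each pair of equal number, gave 5373 sites and a forkhead share of 18.9%. The labels do not say whether libraries of equal number shared a culture or a day. Replicate differences in the 2 groups had a correlation of -0.00607 over 131751 sites, which cannot show whether they did. Chosen after seeing the data, a scaled enrichment at least 1.5 times lower with TWEAK gave 4079 sites, 2196 of them among the 3812, with a forkhead share of 24.8%, and 4916 sites were higher by that measure, so that the balance of falling and rising sites turned, as it did for ranks among shared sites only (5005 rising).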
